A study of Alligator mississippiensis with 17 samples.

Results

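Genes of glucose breakdown and of the response to low oxygen were followed through the tooth cycle of the American alligator, an animal that replaces its teeth throughout life. The set of 38 genes was listed by name, for roles in these pathways, with earlier results of these data known. Of these, 32 have a row among the 20703 genes of the deposited expression table. HK1, HK2, PGAM1, ENO2, PKM and CKB have no row under those symbols and were not analysed here, although PKM2, an older symbol for PKM, does have one. The lactate exporter gene SLC16A3 and the muscle phosphofructokinase gene PFKM were in the table but too low to be tested, which left 30 tested genes.

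The tissue was sampled by dissection, and RNA was measured by sequencing 17 libraries. Of these, 12 came from the dental lamina, the epithelial strand from which each new tooth buds, and 5 came from replacement teeth (RT). The dental lamina was taken before a tooth was initiated (pre-initiation, PIS, n = 5), as it was initiated (IS, n = 3) and during its early growth (EG, n = 4). All of the animals were untreated, 1 year old and raised in a laboratory at 30 degrees, a temperature for which the labels give no scale. No genotype or strain is given. A label field for the stage of the tooth cycle reads pre-initiation for all 17 libraries, RT included, so the groups were taken from the sample titles. Whether each replicate is a different animal is not stated, and the p-values therefore speak to variation among these libraries alone, which may be technical.

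Glycolysis splits glucose into pyruvate in the cytosol and yields ATP without oxygen. Lactate dehydrogenase can then turn pyruvate into lactate, while pyruvate dehydrogenase kinases hold pyruvate back from the mitochondria. When oxygen falls, prolyl hydroxylases no longer mark the alpha subunits of hypoxia-inducible factor (HIF) for degradation, and HIF then switches on many glycolytic genes along with genes of vessel growth and mitochondrial turnover. This control acts mainly on the HIF protein, so the RNA of a HIF subunit gene does not show how active HIF is. In a growing tooth, enamel forms from the dental epithelium and dentin from the mesenchyme beneath it.

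Values are RPKM, reads scaled to the length of the gene model and to the alignments of the library, as the authors deposited them. Levels can be compared between genes because RPKM divides by length. A change is a difference in mean log2(RPKM + 0.5), which understates changes of genes near 0, and its error is a standard error (SE). Each p-value comes from limma, a linear model fitted to all genes together, and was adjusted over all genes tested. A gene was called, and is said to have risen or fallen, at an adjusted p under 0.05. Where values are listed by library, they run from replicate 1 upward within each group.

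The libraries held 9667270 to 37747400 alignments, the fewest in PIS replicate 3. The median gene was not level between groups. It lay 0.28 higher in IS than in PIS, 0.05 higher in EG than in IS, 0.34 higher in EG than in PIS, 0.37 lower in RT than in EG and 0.24 lower in RT than in dental lamina, all on the log2 scale. Changes are therefore given also after median-ratio scaling, which divides each library by the median ratio of its genes to their means over libraries and brings the median gene to within 0.02 of level. Groups often did not overlap as deposited, so a lack of overlap is to be read against all genes tested. Of these, 24.9% lay wholly higher and 2.21% wholly lower in IS than in PIS. In EG against IS these shares were 14.2% and 8.81%, and in EG against PIS 34.7% and 4.98%. They were 3.05% and 30.4% in RT against EG, and 2.13% and 6.08% in RT against dental lamina. Some libraries stood apart. PIS replicate 5 had a summed level of 10 dental epithelium markers of 90.1 RPKM, beside 438 to 590.3 in the other PIS libraries. RT replicate 3 had 143 RPKM, beside 403 to 849 in the other RT libraries. RT replicates 3, 4 and 5 held 24047 to 44558 RPKM of 13 summed fibroblast and mesenchyme markers, beside 7219 and 10863 RPKM in RT replicates 1 and 2. In RT this sum was mostly COL1A1 and COL1A2, with means of 14609 and 7858 RPKM. PRRX1 and TWIST1 went the other way, with means of 16.8 and 20 RPKM in EG and 2.28 and 6.68 RPKM in RT. Of the 13 markers, 5 rose and 4 fell in RT against EG, where 4.89% and 39% of all genes did. The dental lamina libraries were also rich in RNA of these markers and are not to be read as epithelium alone. The same sum was 6456 to 9695 RPKM in PIS, 4918 to 12245 in IS and 3952 to 6288 in EG.

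As deposited, genes of glycolytic steps stood higher in the dental lamina at initiation and in early growth than before initiation. Of 11 tested, 7 rose in each comparison, where 22.7% and 42.9% of all genes rose. After scaling 1 and 4 of the 11 were higher, where 6.19% and 16.7% of all genes were. At initiation the scaled count was thus near the share of all genes. In IS against PIS, 12 of the 30 genes rose and none fell, where 25% of all genes tested were called (22.7% higher and 2.25% lower). At an unadjusted p under 0.05, 1 gene was lower, EPAS1. After scaling, only PKM2 and LDHA of the 12 remained called, where 11.7% of all genes were (6.19% higher and 5.55% lower). The share of the set called was thus above that of all genes as deposited and below it after scaling. Without IS replicate 1 or IS replicate 3, 7 genes were called, where 7.75% or 10.4% of all genes were. In EG against IS, 3 rose and none fell (TPI1, HIF1A and CKM), and the same 3 were called after scaling. CKM passed the filter on low values in the dental lamina fit only through EG, where it is high. Its place in the counts of EG against IS or PIS and of the F test below is therefore a description only. Of all genes, 2.15% were called there (1.64% higher and 0.512% lower), and 1.9% after scaling. At an unadjusted p under 0.05, 1 gene was lower, ADM. Without any 1 of IS replicates 2 and 3 and EG replicates 1, 3 and 4, TPI1 and HIF1A both lost their calls. That left CKM alone of the 30. Of all genes, 0.547% to 1.16% were called in those fits.

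In EG against PIS, 14 genes rose and EPAS1 fell, where 50.5% of all genes were called (42.9% higher and 7.58% lower). After scaling, 8 of the 14 and EPAS1 remained called, where 32.2% of all genes were (16.7% higher and 15.4% lower). The share of the set called was thus close to that of all genes in this comparison, both as deposited and scaled. An F test across the 3 dental lamina stages called 17 of the 30 genes, where 45.4% of all genes were called, and 9 after scaling, where 28.2% were. The median change of the 30 genes was 0.54 in IS against PIS, 0.04 in EG against IS and 0.49 in EG against PIS, beside the medians of all genes given above.

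In RT against EG, 3 genes rose and 6 fell, where 43.9% of all genes were called, 4.89% higher and 39% lower. Scaling changed this split. After it, 6 were higher and 1 lower, where 15.6% of all genes were called (9.28% higher and 6.35% lower), and 3 higher and 1 lower were called in both analyses. In RT against the mean of the 3 dental lamina stages, 6 rose and 6 fell, where 46.8% of all genes were called (10.5% higher and 36.3% lower). After scaling 12 were higher and 2 lower, where 37.6% of all genes were called (20% higher and 17.5% lower). The 6 that rose as deposited, CKM among them as a description only, were all among the 12. SLC16A1, GPI, ALDOC, TPI1, GAPDH and EGLN1 were called higher only after scaling. Their scaled changes were 0.46, 0.36, 0.66, 0.6, 0.36 and 0.53 (limma adjusted p from 0.000319 to 0.0393). Without RT replicates 3 and 5, a pair picked from earlier results of these data, 4 genes were called in RT against EG, all lower, where 11.9% of all genes were called. In RT against dental lamina 10 were called, a count for which no share of all genes is given. RT and EG libraries enter both of these comparisons, and PIS and EG libraries are shared among the dental lamina comparisons, so the sets of calls are not independent.

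**Figure D1:**
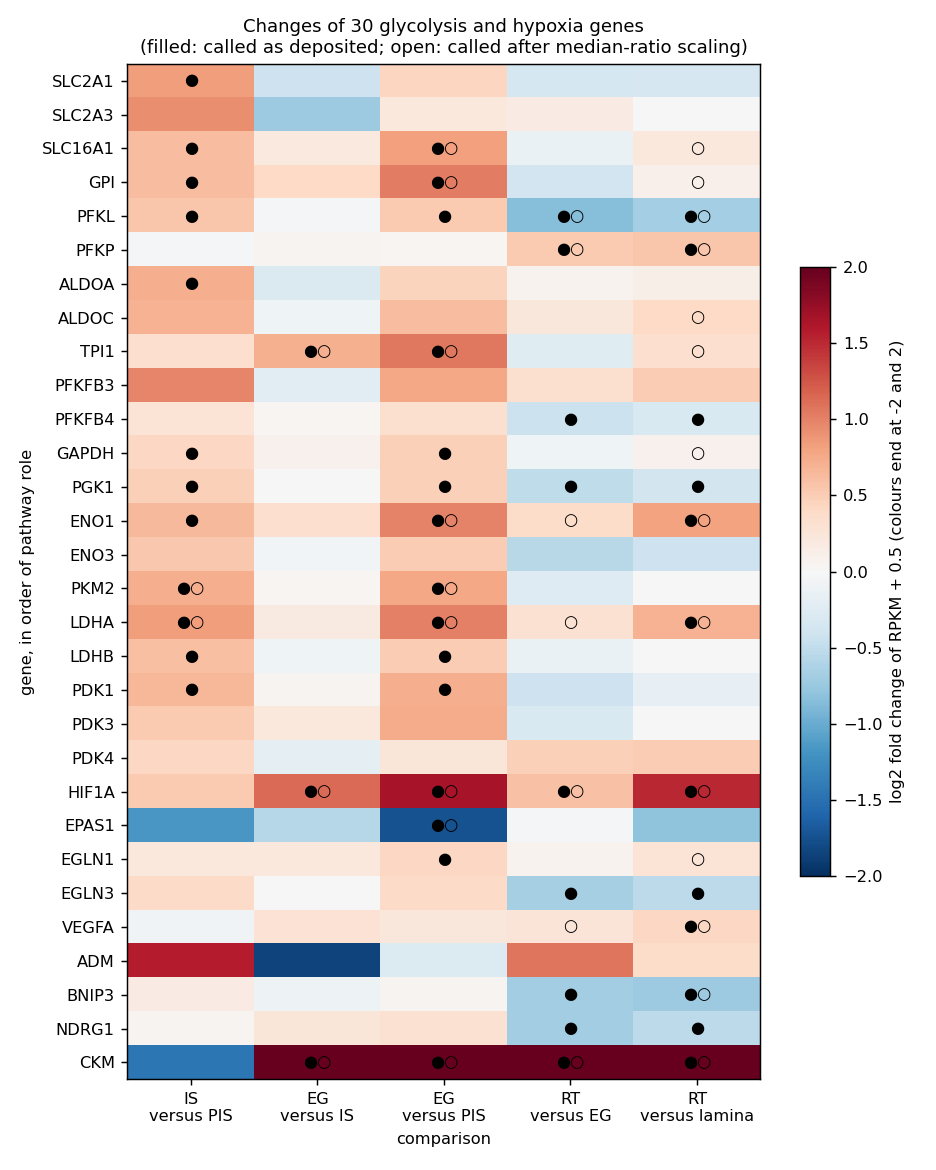
Log2 fold change of RPKM + 0.5 for the 30 tested genes (rows, in order of pathway role) in each of 5 comparisons (columns). Red is higher and blue is lower in the first-named group, colours end at -2 and 2, a filled dot marks a gene called as deposited and an open dot one called after median-ratio scaling. The IS versus PIS column has 12 filled dots and 2 open ones, and CKM is past the end of the colour scale in all 4 comparisons that include EG or RT.

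Of the transporters that bring sugar in and carry lactate out, SLC2A1 (the glucose transporter GLUT1) and SLC16A1 (the lactate and pyruvate transporter MCT1) rose at initiation. SLC2A1 had 7.38, 5.4, 9.25, 5.14 and 3.02 RPKM in PIS, 8.04, 11.3 and 12.6 RPKM in IS, 8.75, 6.33, 7.43 and 8.99 RPKM in EG and 5.14, 5.53, 5.12, 6.19 and 8.72 RPKM in RT. It was highest in IS replicates 2 and 3, and the IS and PIS ranges overlapped at PIS replicate 3. The rise was 0.83 ± 0.27 (SE, limma adjusted p = 0.0423), and 0.55 after scaling (adjusted p = 0.182). The call was lost without any 1 of PIS replicates 2, 4 and 5, IS replicates 1, 2 and 3 and EG replicates 1, 2, 3 and 4, with adjusted p between 0.05004 and 0.161. SLC16A1 was steadier. It averaged 5.15 ± 0.909 RPKM in PIS, 8.13 ± 0.318 in IS, 9.36 ± 0.439 in EG and 8.54 ± 0.863 in RT (SD, n = 5, 3, 4 and 5). It rose by 0.62 ± 0.13 in IS against PIS (adjusted p = 0.0074) and by 0.82 ± 0.12 in EG against PIS (adjusted p = 0.000382). No IS or EG library overlapped PIS. After scaling, the EG rise remained called (0.49, adjusted p = 0.0142) and the IS rise did not (0.34, adjusted p = 0.133). SLC16A3 (the lactate exporter MCT4) was at most 0.0933 RPKM in any library.

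The upper steps of glycolysis prepare and split the sugar. GPI, which turns glucose 6-phosphate into fructose 6-phosphate, had 47.7, 44, 39.4, 57.7 and 32.6 RPKM in PIS, 79.4, 58.3 and 65.4 RPKM in IS, 113, 77.5, 84.8 and 83.6 RPKM in EG and 81.3, 106, 54.2, 58.6 and 53.9 RPKM in RT. All IS and EG libraries exceeded all PIS libraries, and RT replicates 1 and 2 exceeded the other 3 RT libraries. GPI rose by 0.62 ± 0.18 in IS against PIS (adjusted p = 0.0264) and by 1.02 ± 0.16 in EG against PIS (adjusted p = 0.000531). After scaling the EG rise was 0.68 (adjusted p = 0.00332) and the IS rise 0.32 (adjusted p = 0.175). Without IS replicate 1 or IS replicate 3, the IS adjusted p was 0.129 or 0.0773.

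TPI1, which interconverts the products of the sugar split, moved later. It had 90.7, 82.8, 100, 97.4 and 70.1 RPKM in PIS, 132, 96.4 and 107 RPKM in IS, 184, 165, 175 and 203 RPKM in EG and 181, 206, 124, 166 and 108 RPKM in RT. The 4 EG libraries exceeded every PIS and IS library, while IS overlapped PIS. TPI1 rose by 0.71 ± 0.14 in EG against IS (adjusted p = 0.0228, scaled 0.66 with adjusted p = 0.0205) and by 1.05 ± 0.13 in EG against PIS (adjusted p = 0.000127, scaled 0.70 with adjusted p = 0.000872). Its change in IS against PIS was 0.34 ± 0.14 (adjusted p = 0.0834). The call in EG against IS was lost without any 1 of IS replicates 2 and 3 and EG replicates 1, 3 and 4, with adjusted p between 0.0678 and 0.149.

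ALDOA, the main aldolase of most tissues, had 39.6, 35, 71.7, 66.5 and 41 RPKM in PIS, 70.7, 92.7 and 80.4 RPKM in IS, 70.4, 68.8, 63.2 and 62.5 RPKM in EG and 74.5, 64.3, 68.2, 67.8 and 71.8 RPKM in RT. PIS was split, with replicates 3 and 4 at the level of the other stages and the remaining 3 between 35 and 41 RPKM. It rose by 0.73 ± 0.21 in IS against PIS (adjusted p = 0.0286), and by 0.43 after scaling (adjusted p = 0.219). That call was lost without any 1 of PIS replicate 2 and IS replicates 1, 2 and 3, with adjusted p between 0.0505 and 0.0869. The brain-type aldolase gene ALDOC averaged 7.48 ± 3.66 RPKM in PIS, 11.6 ± 2.01 in IS, 11 ± 1.87 in EG and 13.2 ± 3.53 in RT (SD). As deposited it was called in none of the 5 comparisons (adjusted p from 0.0624 to 0.939). After scaling it was called in RT against dental lamina alone (0.66, adjusted p = 0.0311).

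Phosphofructokinase commits sugar to glycolysis, and its isoform genes moved in opposite directions in the replacement tooth. The liver-type gene PFKL had 17.3, 13.5, 12.7, 12.8 and 9.18 RPKM in PIS, 19.7, 18.6 and 19.5 RPKM in IS, 18.9, 17.3, 19.2 and 19.9 RPKM in EG and 10.7, 14.3, 8.57, 10.9 and 7.72 RPKM in RT. Every RT library lay below every EG and IS library. PFKL fell by 0.85 ± 0.17 in RT against EG (adjusted p = 0.0021, scaled -0.47 with adjusted p = 0.0181) and by 0.68 ± 0.13 in RT against dental lamina (adjusted p = 0.000708, scaled -0.43 with adjusted p = 0.00264). It rose by 0.56 ± 0.15 in IS against PIS (adjusted p = 0.021) and by 0.53 ± 0.14 in EG against PIS (adjusted p = 0.0083), and neither of these was called after scaling (adjusted p = 0.175 and 0.223). Without IS replicate 1 or IS replicate 3, the IS adjusted p was 0.0826 or 0.0767.

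The platelet-type gene PFKP had 15.4, 13.3, 14.1, 17.8 and 12.6 RPKM in PIS, 13.6, 15.8 and 13.5 RPKM in IS, 16.5, 11.5, 16 and 16.6 RPKM in EG and 13.7, 18.2, 29.5, 23.2 and 28.4 RPKM in RT. RT replicates 2 to 5 stood above all dental lamina libraries, replicate 2 narrowly, and RT replicate 1 did not. PFKP rose by 0.52 ± 0.19 in RT against EG (adjusted p = 0.037) and by 0.56 ± 0.15 in RT against dental lamina (adjusted p = 0.00755), and its scaled changes were 0.91 and 0.81 (adjusted p = 0.0142 and 0.00225). The call against EG was lost without any 1 of EG replicates 1, 2 and 3 and RT replicates 3, 4 and 5, with adjusted p between 0.0537 and 0.12. Without RT replicates 3 and 5 together, the changes were 0.25 against EG (adjusted p = 0.314) and 0.29 against dental lamina (adjusted p = 0.18). RT replicates 3, 4 and 5 are those with the high fibroblast and mesenchyme marker sums, which in RT are mostly COL1A1 and COL1A2. The part of those markers in the PFKP values was not tested. PFKM, the muscle isoform gene, was at 0.0984 to 1.35 RPKM in PIS, 0.521 to 0.928 in IS, 0.221 to 0.415 in EG and 0 to 0.109 in RT.

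PFKFB3 and PFKFB4 encode enzymes that make and break fructose 2,6-bisphosphate, a strong activator of phosphofructokinase. PFKFB4 averaged 9.17 ± 1.54 RPKM in PIS, 11.1 ± 0.984 in IS, 11.5 ± 0.923 in EG and 8.39 ± 0.619 in RT (SD). It fell by 0.43 ± 0.12 in RT against EG (adjusted p = 0.0118), with no overlap between RT and EG libraries, and by 0.31 ± 0.10 in RT against dental lamina (adjusted p = 0.0156). These falls were close to those of the median gene, and after scaling they were -0.05 and -0.06 (adjusted p = 0.793 and 0.628). Without RT replicates 3 and 5 together, the unscaled adjusted p was 0.0834 against EG and 0.125 against dental lamina. PFKFB3 was called in no comparison and varied widely within groups, as described with SLC2A3 at the end.

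**Figure D2:**
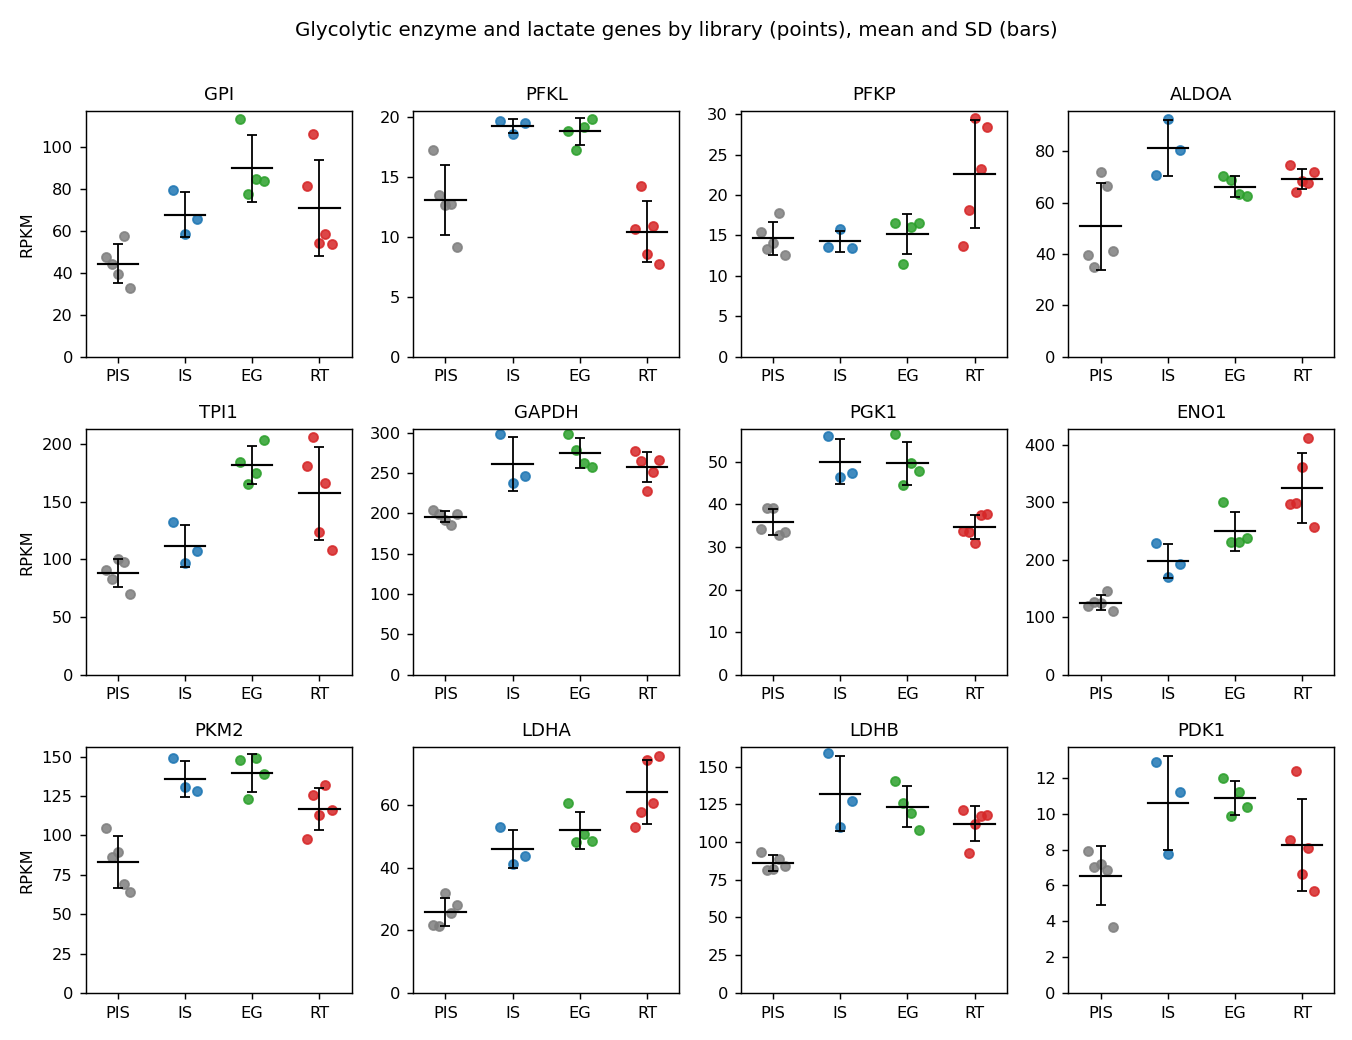
RPKM of 12 enzyme genes of glycolysis and of lactate and pyruvate metabolism (panels), with each library as a point and the mean and SD of each group as bars. Groups are PIS (n = 5), IS (n = 3), EG (n = 4) and RT (n = 5). LDHA means are 25.7, 45.9, 51.9 and 64.2 RPKM over the groups, whereas PGK1 means are 35.8, 49.9, 49.6 and 34.7 RPKM.

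In the lower steps, which harvest ATP, 4 of 5 tested genes rose in IS against PIS and 4 in EG against PIS, where 22.7% and 42.9% of all genes rose. After scaling these counts were 1 and 2, where 6.19% and 16.7% of all genes rose. GAPDH had the highest mean level of the set in PIS, IS and EG, and ENO1 in RT. PKM2, the pyruvate kinase gene, had 105, 86.6, 89.8, 69 and 64.2 RPKM in PIS, 149, 131 and 128 RPKM in IS, 148, 123, 149 and 139 RPKM in EG and 97.5, 126, 113, 132 and 116 RPKM in RT. Every IS and EG library exceeded every PIS library. It rose by 0.73 ± 0.15 in IS against PIS (adjusted p = 0.00586, scaled 0.43 with adjusted p = 0.0474) and by 0.77 ± 0.14 in EG against PIS (adjusted p = 0.000895, scaled 0.42 with adjusted p = 0.0168). The table has 1 row for it, so the splice forms of pyruvate kinase were not told apart.

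ENO1, the ubiquitous enolase gene, had 120, 126, 125, 146 and 110.4 RPKM in PIS, 229, 170.3 and 193 RPKM in IS, 300.5, 231, 230.3 and 237 RPKM in EG and 297, 298, 360.4, 412 and 257 RPKM in RT. No PIS library overlapped a library of any other group, and EG lay above IS in every library. ENO1 rose by 0.65 ± 0.13 in IS against PIS (adjusted p = 0.00563), by 0.99 ± 0.12 in EG against PIS (adjusted p = 0.000135) and by 0.81 ± 0.12 in RT against dental lamina (adjusted p = 7.34e-05). The IS rise was 0.35 after scaling (adjusted p = 0.0678), whereas the other rises remained called at 0.64 (adjusted p = 0.00109) and 1.07 (adjusted p = 2.93e-06). In RT against EG its change was 0.37 ± 0.15 as deposited (adjusted p = 0.0567) and 0.76 scaled (adjusted p = 0.0019). The muscle-type enolase gene ENO3 averaged 0.756 to 1.41 RPKM over the 4 groups and was called in none of the comparisons (adjusted p = 0.0666 in RT against EG, where the ranges did not overlap).

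PGK1, which makes the first ATP of the payoff phase and is a textbook HIF target in mammals, had 34.3, 39.1, 39.2, 32.9 and 33.5 RPKM in PIS, 56, 46.4 and 47.4 RPKM in IS, 56.4, 44.6, 49.7 and 47.8 RPKM in EG and 33.7, 33.6, 31, 37.4 and 37.7 RPKM in RT. IS and EG libraries lay above all PIS and all RT libraries. It rose by 0.47 ± 0.11 in IS against PIS (adjusted p = 0.0107) and by 0.47 ± 0.10 in EG against PIS (adjusted p = 0.00288), and it fell by 0.51 ± 0.10 in RT against EG (adjusted p = 0.00233) and by 0.36 ± 0.08 in RT against dental lamina (adjusted p = 0.00228). None of the 4 was called after scaling, where the changes were 0.18, 0.12, -0.12 and -0.10 (adjusted p = 0.273, 0.352, 0.499 and 0.407). Without IS replicate 1 the IS adjusted p was 0.0687. GAPDH averaged 196 ± 6.91 RPKM in PIS, 261 ± 33 in IS, 275 ± 19 in EG and 258 ± 19.4 in RT (SD). It rose by 0.41 ± 0.10 in IS against PIS (adjusted p = 0.0127, and 0.0788 without IS replicate 1) and by 0.48 ± 0.09 in EG against PIS (adjusted p = 0.0012). Scaled, those changes were 0.11 and 0.13 (adjusted p = 0.507 and 0.278).

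At the lactate branch, LDHA rose at initiation under both scalings and was higher again in the replacement tooth. LDHA encodes the subunit of lactate dehydrogenase best known for making lactate. It had 21.7, 21.5, 32, 25.5 and 27.9 RPKM in PIS, 52.9, 41.1 and 43.8 RPKM in IS, 60.6, 48, 50.6 and 48.5 RPKM in EG and 52.8, 57.8, 74.2, 60.5 and 75.7 RPKM in RT. The highest PIS library was below the lowest library of every other group. The rise was 0.83 ± 0.15 in IS against PIS (adjusted p = 0.0029, scaled 0.54 with adjusted p = 0.0394), 1.01 ± 0.13 in EG against PIS (adjusted p = 0.000196, scaled 0.66 with adjusted p = 0.00386) and 0.69 ± 0.11 in RT against dental lamina (adjusted p = 0.000176, scaled 0.95 with adjusted p = 9.78e-05). In RT against EG the change was 0.30 ± 0.14 as deposited (adjusted p = 0.0974) and 0.69 scaled (adjusted p = 0.017).

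LDHB, the heart-type subunit gene, was the more abundant of the pair in all 17 libraries, with means of 86 ± 5.1 RPKM in PIS, 132 ± 24.7 in IS, 123 ± 13.6 in EG and 112 ± 11.4 in RT (SD). It rose by 0.60 ± 0.12 in IS against PIS (adjusted p = 0.00615) and by 0.51 ± 0.11 in EG against PIS (adjusted p = 0.00317), and scaled changes were 0.30 and 0.16 (adjusted p = 0.0922 and 0.234). Of the kinases that switch off pyruvate dehydrogenase, PDK1 rose by 0.67 ± 0.22 in IS against PIS (adjusted p = 0.0407) and by 0.73 ± 0.20 in EG against PIS (adjusted p = 0.0098), with means of 6.53 ± 1.65 RPKM in PIS, 10.6 ± 2.63 in IS, 10.9 ± 0.929 in EG and 8.27 ± 2.6 in RT (SD). Scaled, those adjusted p were 0.188 and 0.0923. The PDK1 call at initiation was lost without any 1 of PIS replicate 2, IS replicates 1 and 3 and EG replicates 1, 2, 3 and 4 (adjusted p between 0.0506 and 0.181), and without PIS replicates 4 and 5 together (0.0653).

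PDK4, the isoform best known from fasting muscle, had 5.34, 11.2, 2.41, 3.7 and 8.02 RPKM in PIS, 7.85, 6.47 and 7.97 RPKM in IS, 7.73, 6.33, 6.05 and 5.83 RPKM in EG and 4.22, 10.1, 13, 12.7 and 9.13 RPKM in RT. PIS alone spanned 2.41 to 11.2 RPKM, so the ranges overlapped in every comparison. It was not called, with changes of 0.42 ± 0.35 in IS against PIS (adjusted p = 0.372) and 0.48 ± 0.35 in RT against EG (adjusted p = 0.255). PDK3 averaged 4.29 to 6.91 RPKM over the 4 groups and was not called either.

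A plain ratio of a pair of genes within a library does not depend on how the library is scaled, and 10 ratios of related genes were compared in EG against PIS and in RT against EG. The tests used log2 ratios of RPKM + 0.5, which keep some dependence on scaling where a gene is low, as for EGLN3 and ENO3. These were 20 exact permutation tests, two-sided, and each could reach at best p = 0.00794. After adjustment over the 20, a lone ratio at that p could not pass. None of the 20 passed after adjustment, where 3 in EG against PIS and 4 in RT against EG had an unadjusted p under 0.05. The plain ratio of PFKP to PFKL in RPKM was 1.27, 1.27, 3.44, 2.12 and 3.67 in RT and 0.874, 0.662, 0.831 and 0.834 in EG, with no overlap. The log2 ratio differed by 1.37 (RT 1.05 ± 0.72 and EG -0.32 ± 0.17, SD, n = 5 and 4, exact permutation p = 0.0238, adjusted p = 0.068). In EG against PIS the same log2 ratio differed by -0.49 (EG -0.32 ± 0.17 and PIS 0.17 ± 0.28, SD, n = 4 and 5, exact permutation p = 0.0159, adjusted p = 0.068). The plain ratio of LDHA to LDHB was 0.232 to 0.391 in PIS, 0.333 to 0.373 in IS, 0.382 to 0.45 in EG and 0.437 to 0.66 in RT. Its log2 ratio differed by 0.50 in EG against PIS and by 0.43 in RT against EG (exact permutation p = 0.0238 and adjusted p = 0.068 for each).

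Among the HIF subunits and the oxygen sensors, HIF1A and EPAS1 moved in opposite directions through the dental lamina. HIF1A encodes the HIF-1 alpha subunit. It had 28.9, 36.3, 58.1, 49.9 and 35.7 RPKM in PIS, 71.5, 40 and 68.5 RPKM in IS, 141, 100.4, 129.8 and 149 RPKM in EG and 136, 205, 244, 222 and 177 RPKM in RT. All EG libraries lay above all PIS and IS libraries, IS replicate 2 lay within the PIS range, and RT replicate 1 lay within the EG range. HIF1A rose by 1.65 ± 0.22 in EG against PIS (adjusted p = 0.000203, scaled 1.31 with adjusted p = 0.00115), a 3.15-fold difference, and by 1.51 ± 0.18 in RT against dental lamina (adjusted p = 9.26e-06, scaled 1.78 with adjusted p = 3.81e-06). In IS against PIS the change was 0.52 ± 0.24 (adjusted p = 0.125).

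Between neighbouring groups the HIF1A calls were less firm. It rose by 1.14 ± 0.25 in EG against IS (adjusted p = 0.0338, scaled 1.09 with adjusted p = 0.0441), and this call was lost without any 1 of IS replicates 1, 2 and 3 and EG replicates 1, 3 and 4, with adjusted p between 0.0561 and 0.193. It rose by 0.58 ± 0.23 in RT against EG (adjusted p = 0.046, scaled 0.98 with adjusted p = 0.0114). That call was lost without any 1 of PIS replicate 2, IS replicate 3, EG replicates 1, 2, 3 and 4 and RT replicates 2, 3, 4 and 5, with adjusted p between 0.0517 and 0.133, and without RT replicates 3 and 5 together (0.51, adjusted p = 0.177) or PIS replicates 4 and 5 together (adjusted p = 0.0508).

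EPAS1 encodes the HIF-2 alpha subunit, which in mammals is prominent in endothelium. It had 54, 88.6, 33.1, 26.3 and 105 RPKM in PIS, 20.7, 25.8 and 24.4 RPKM in IS, 8.47, 20.2, 17.2 and 20.4 RPKM in EG and 8.37, 6.3, 24.3, 23.1 and 27.4 RPKM in RT. All IS and EG libraries lay below all PIS libraries, and PIS alone spanned 26.3 to 105 RPKM. EPAS1 fell by 1.74 ± 0.38 in EG against PIS (adjusted p = 0.00292, scaled -2.08 with adjusted p = 0.00263). In IS against PIS its change was -1.17 ± 0.41 (adjusted p = 0.0556, scaled adjusted p = 0.0504). Markers of endothelium and of other cell types fell beside it. Of 17 endothelial markers, 13 fell in EG against PIS and 9 fell in IS against PIS, where 7.58% and 2.25% of all genes fell. The 17 include LYVE1, which passed the filter on low values only through PIS, where it is high. Its place in these counts is a description only. The summed level of the 17 was 133 to 337 RPKM in PIS, 105 to 135 RPKM in IS and 70.4 to 125 RPKM in EG. Of 9 smooth muscle and mural markers, 7 fell and 2 rose in EG against PIS, and 5 fell in IS against PIS. Of 13 fibroblast and mesenchyme markers, 7 fell in EG against PIS and none in IS against PIS. The PIS libraries with most EPAS1, replicates 5 and 2, also had the highest endothelial sums, 337 and 270.1 RPKM. Their smooth muscle and mural sums were the highest of PIS too, 409.6 and 355 RPKM. The part of these markers in the EPAS1 fall was not tested, and in bulk tissue fewer cells of a type and less RNA per cell cannot be told apart.

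The plain ratio of EPAS1 to HIF1A in RPKM was 0.0601, 0.201, 0.132 and 0.137 in EG and 1.87, 2.44, 0.57, 0.527 and 2.94 in PIS. EPAS1 thus exceeded HIF1A in PIS replicates 1, 2 and 5 and in no EG library, and the ranges did not overlap. The log2 ratio of RPKM + 0.5 differed by -3.39 (exact permutation p = 0.00794, the smallest this design allows, adjusted p = 0.068).

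The products of the prolyl hydroxylase genes mark HIF for degradation. As deposited, EGLN1 was called in early growth and EGLN3 in the replacement tooth, and none of these calls remained after scaling. EGLN1, the main sensor in most mammalian tissues, averaged 10.7 ± 1.22 RPKM in PIS, 12.4 ± 0.774 in IS, 14.5 ± 1.4 in EG and 15.4 ± 3.46 in RT (SD). It rose by 0.42 ± 0.11 in EG against PIS (adjusted p = 0.00757, scaled 0.09 with adjusted p = 0.527). In RT against dental lamina its change was 0.28 ± 0.11 as deposited (adjusted p = 0.0567). Scaled, that change was 0.53 and was called (adjusted p = 0.00791). EGLN3, itself a HIF target in mammals, had 1.24, 1.88, 1.5, 1.79 and 1.54 RPKM in PIS, 2.15, 2.4 and 2.08 RPKM in IS, 2.91, 1.76, 1.99 and 2.27 RPKM in EG and 1.41, 0.926, 0.786, 1.19 and 1.99 RPKM in RT. RT replicate 5 reached the EG range and the other 4 RT libraries lay below it. EGLN3 fell by 0.66 ± 0.19 in RT against EG (adjusted p = 0.0125) and by 0.53 ± 0.15 in RT against dental lamina (adjusted p = 0.00854), with scaled changes of -0.35 and -0.33 (adjusted p = 0.258 and 0.121). EGLN3 over EGLN1 differed by -0.72 on the log2 scale in RT against EG (exact permutation p = 0.0238, adjusted p = 0.068).

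**Figure D3:**
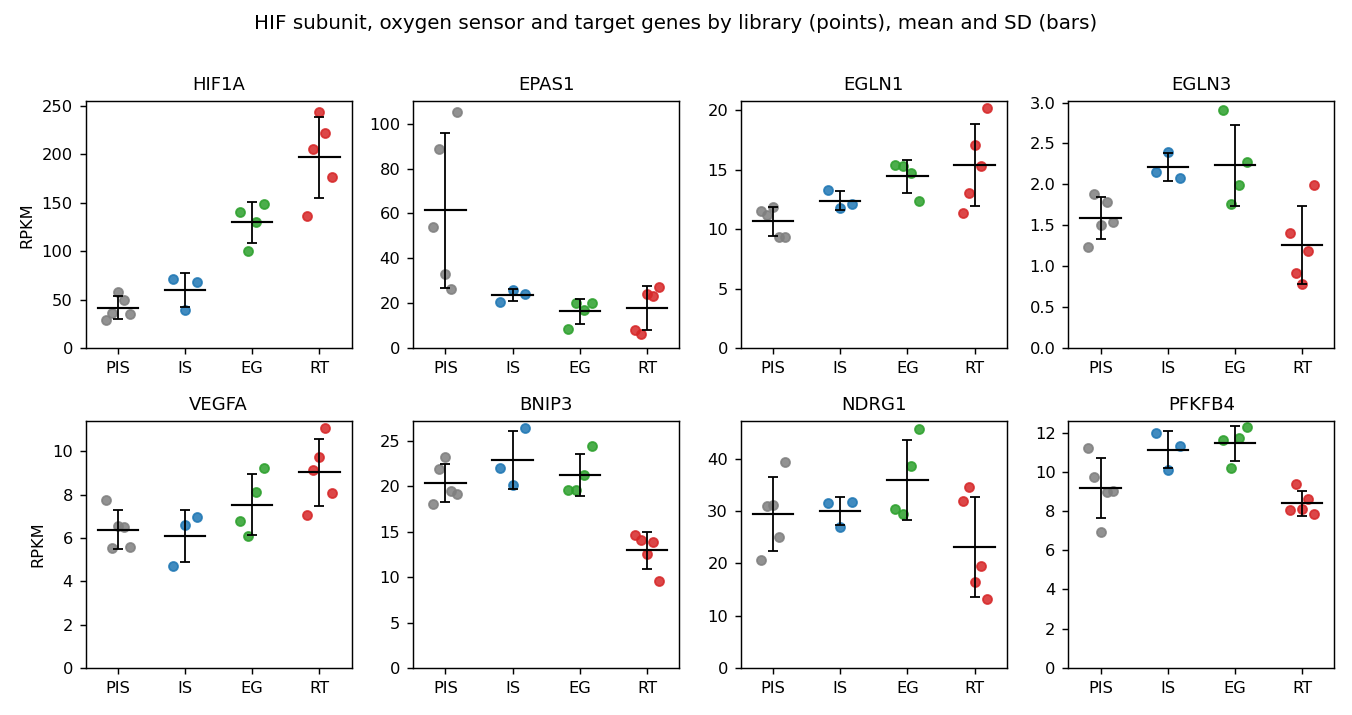
RPKM of 8 genes of HIF subunits, oxygen sensors and HIF targets (panels), with each library as a point and the mean and SD of each group as bars, for PIS (n = 5), IS (n = 3), EG (n = 4) and RT (n = 5). HIF1A means are 41.8, 60, 130 and 197 RPKM over the groups, while BNIP3 (20.4, 22.9, 21.2 and 12.9) is lowest in RT.

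The classical HIF targets of the set did not move as 1 group. None of VEGFA, ADM, BNIP3 and NDRG1 was called in IS against PIS, EG against IS or EG against PIS. With limma's p before adjustment, only ADM was under 0.05, in IS against PIS and in EG against IS (adjusted p = 0.0513 and 0.126). VEGFA, the main signal for vessel growth, had 7.74, 5.53, 6.57, 6.51 and 5.59 RPKM in PIS, 4.71, 6.59 and 6.97 RPKM in IS, 6.77, 6.07, 8.11 and 9.21 RPKM in EG and 7.08, 9.15, 9.76, 11.1 and 8.08 RPKM in RT. It was highest in RT replicate 4, and RT overlapped EG. VEGFA rose by 0.42 ± 0.13 in RT against dental lamina (adjusted p = 0.0136, scaled 0.66 with adjusted p = 0.000938), and its change in RT against EG was 0.25 ± 0.16 (adjusted p = 0.2, scaled 0.62 with adjusted p = 0.0191). The call against dental lamina was lost without RT replicate 4 (0.34, adjusted p = 0.0525) and without RT replicates 3 and 5 together (adjusted p = 0.0658).

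BNIP3, which tags mitochondria for removal, had 18.1, 21.9, 23.2, 19.5 and 19.2 RPKM in PIS, 22, 20.2 and 26.4 RPKM in IS, 19.6, 19.6, 21.3 and 24.5 RPKM in EG and 14.6, 14.1, 12.6, 13.9 and 9.55 RPKM in RT. Every RT library was below every dental lamina library. BNIP3 fell by 0.70 ± 0.13 in RT against EG (adjusted p = 0.00147) and by 0.72 ± 0.10 in RT against dental lamina (adjusted p = 5.52e-05). After scaling the fall against dental lamina remained called (-0.47, adjusted p = 0.000683) and that against EG did not (-0.32, adjusted p = 0.0587). NDRG1, a stress- and differentiation-linked gene induced by hypoxia in human cells, had 20.6, 30.9, 31.1, 25.1 and 39.4 RPKM in PIS, 31.5, 27 and 31.7 RPKM in IS, 30.4, 29.4, 38.7 and 45.7 RPKM in EG and 32, 34.7, 16.5, 19.5 and 13.1 RPKM in RT. RT replicates 3, 4 and 5 were below all dental lamina libraries and RT replicates 1 and 2 were within their range.

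NDRG1 fell by 0.70 ± 0.25 in RT against EG (adjusted p = 0.0347) and by 0.52 ± 0.20 in RT against dental lamina (adjusted p = 0.0433), and neither was called after scaling (adjusted p = 0.383 and 0.275). The call against EG was lost without any 1 of EG replicates 3 and 4 and RT replicates 3, 4 and 5, with adjusted p between 0.0649 and 0.103. That against dental lamina was lost without any 1 of PIS replicates 2, 3 and 5, IS replicates 1 and 3, EG replicates 3 and 4 and RT replicates 3, 4 and 5, with adjusted p between 0.0528 and 0.17. Without RT replicates 3 and 5 together, the changes were -0.34 against EG (adjusted p = 0.293) and -0.16 against dental lamina (adjusted p = 0.578), and without PIS replicates 4 and 5 the adjusted p against dental lamina was 0.0612.

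CKM had the largest change of the set in each of the 4 comparisons that include EG or RT. CKM encodes the muscle-type creatine kinase, which regenerates ATP from phosphocreatine. It passed the filter on low values (1 RPKM or more in 3 or more libraries) through EG and RT, the groups where it is high, so its calls in EG against PIS or IS and in RT against dental lamina are descriptions only. It had 0.382, 0.144, 0.951, 9.72 and 0.454 RPKM in PIS, 0.0334, 0.0345 and 0.112 RPKM in IS, 35.3, 24.2, 19.2 and 8.99 RPKM in EG and 74, 111, 123, 89.1 and 79.8 RPKM in RT. Every RT library exceeded every EG library, EG exceeded IS in every library, and PIS replicate 4 alone of the PIS libraries reached the EG range. CKM was higher by 5.17 ± 0.75 in EG against IS (scaled 4.96) and by 3.73 ± 0.66 in EG against PIS (scaled 3.44). In RT against dental lamina it was higher by 5.19 ± 0.47 (scaled 5.41). No p-value is given for these changes because of the filter. In RT against EG, where both groups are high, it rose by 2.22 ± 0.59 (limma adjusted p = 0.00908, scaled 2.61 with adjusted p = 0.00869). Without PIS replicates 4 and 5 the rise in EG against PIS was 4.43, and without RT replicates 3 and 5 the rise in RT against EG was 2.17 (adjusted p = 0.0572).

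The sum of muscle markers did not follow CKM. Of 16 skeletal muscle markers in the table, MYH7, NEB and CAV3 were below 0.1 RPKM in every library, and the summed level was 12.1 to 28.5 RPKM in PIS, 9.72 to 13.4 in IS, 6.83 to 9.5 in EG and 3.99 to 6.84 in RT, lowest where CKM was highest. Most of the PIS sum came from DES.1 and ACTA1, with PIS means of 9.53 and 5.47 RPKM. TNNT3, TNNI2 and TNNC2 went the other way, with their highest means in RT, all below 1 RPKM. TNNT3 had 0.165 to 0.307 RPKM in EG and 0.319 to 0.832 in RT. Of the 3 muscle markers high enough to test, 1 fell in RT against EG and all 3 fell in RT against dental lamina. Of all genes, 39% and 36.3% fell there. After scaling none and 2 were lower, where 6.35% and 17.5% of all genes were. The sum of enamel markers moved with CKM between groups, but not every marker did. The summed level of 8 of them was 0.884 to 9.47 RPKM in PIS, 1.16 to 2.47 RPKM in IS, 235, 387, 1769 and 2917 RPKM in EG and 3449 to 9804 RPKM in RT. Within this sum, SCNN1D averaged 84.4 RPKM in EG and 3364 RPKM in RT. AMBN, ENAM, MMP20 and CALB1 overlapped between EG and RT. SLC24A4 went the other way, with means of 0.99 RPKM in PIS, 0.395 in EG and 0.0462 in RT. PIS replicate 4, with the high CKM, had the highest enamel sum of PIS, 9.47 RPKM. Within EG the order was opposite, since the library with most CKM had the lowest enamel sum and the one with least CKM the highest. The part of enamel-forming cells in the CKM values was not tested.

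**Figure D4:**
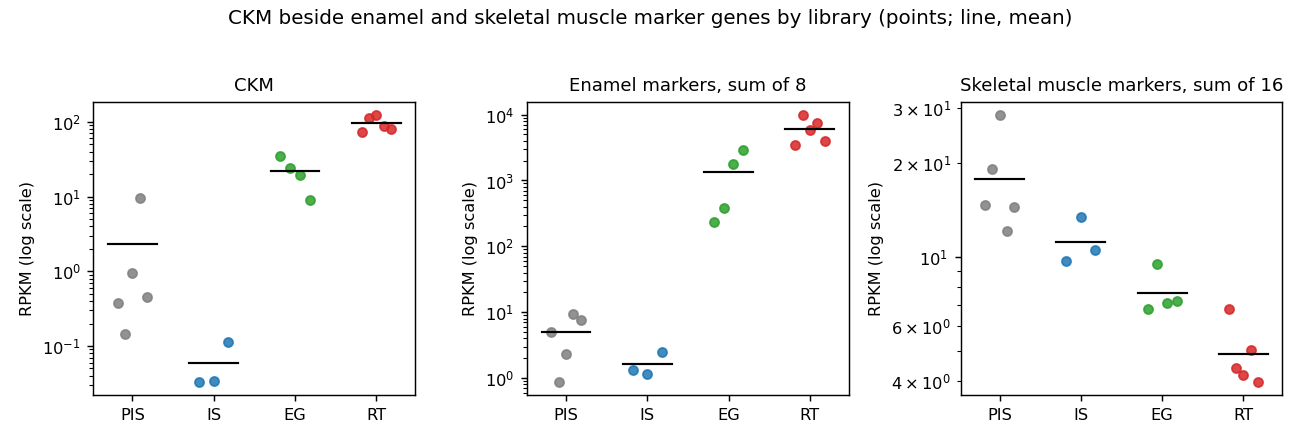
RPKM on log axes, by library (points) and group mean (line), of CKM (left), of 8 summed enamel markers (middle) and of 16 summed skeletal muscle markers (right), for PIS (n = 5), IS (n = 3), EG (n = 4) and RT (n = 5). CKM and the enamel sum are highest in RT, where the muscle sum is lowest, at 3.99 to 6.84 RPKM.

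SLC2A3, which encodes the high-affinity glucose transporter GLUT3, was the least reproducible gene of the set. It had 4.77, 4.58, 105, 117 and 7.38 RPKM in PIS, 3.35, 139.7 and 90.4 RPKM in IS, 42.4, 3.86, 19.2 and 66.2 RPKM in EG and 16, 3.7, 108, 22.5 and 57.2 RPKM in RT. Each group held both low and high libraries, and no pair of groups was apart. The ratio of highest to lowest library was 25.5 within PIS, 41.7 within IS, 17.1 within EG and 29.1 within RT. Its pooled SD within groups was 2.14 on the log2 scale, beside 0.28 for the median gene tested, and SLC2A3 was called in no comparison (adjusted p from 0.637 to 0.996).

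Immediate early genes, which cells transcribe quickly and briefly after a stimulus, varied in the same libraries. The summed level of 12 of them, including FOS, JUNB and EGR1, was 104, 176, 3254, 2984 and 479 RPKM in PIS, 281, 4599 and 2946 RPKM in IS, 1197, 264, 1088 and 1299 RPKM in EG and 323, 94, 986, 658 and 685 RPKM in RT. Ranked within a group, this sum and SLC2A3 gave the same order in IS, EG and RT. In PIS they differed only in the order of replicates 1 and 2 and of replicates 3 and 4. That list was chosen after the values of SLC2A3 were seen, and no cause of this variation was tested.

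ADM and PFKFB3 also spread widely, with pooled SDs of 0.99 and 0.71. ADM, which encodes the vessel-dilating peptide adrenomedullin, had 0.578, 0.687, 0.629, 1.56 and 0.472 RPKM in PIS, 0.59, 7.85 and 4.92 RPKM in IS, 0.617, 0.138, 0.353 and 1.26 RPKM in EG and 0.607, 0.201, 4.69, 2.21 and 3.58 RPKM in RT. Within IS, EG and RT its libraries ranked in the same order as for the immediate early sum, but within PIS they did not, since replicate 3 had the highest sum and less ADM than replicates 2 and 4. IS replicate 1, with the low sum, was also the low IS library of ADM. The F test across dental lamina stages called it (adjusted p = 0.036, scaled 0.0629), and no pairwise comparison did. PFKFB3 had 1.78, 1.63, 4.75, 5.05 and 2.81 RPKM in PIS, 2.24, 11.9 and 8.68 RPKM in IS, 6.78, 3.04, 5.42 and 7.13 RPKM in EG and 3.86, 12.5, 6.85, 8.12 and 5.29 RPKM in RT. It followed the immediate early sum in order within IS and EG, but in RT it was highest in replicate 2, where that sum was lowest. ALDOA had its 2 high PIS values in replicates 3 and 4, the PIS libraries with the 2 highest sums.

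**Figure D5:**
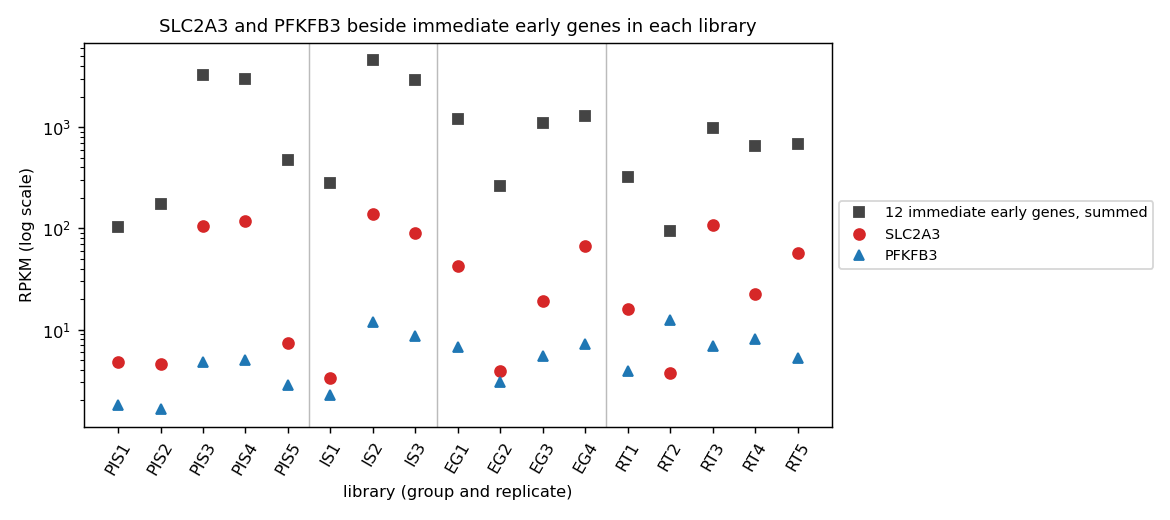
RPKM on a log axis of SLC2A3 (circles), PFKFB3 (triangles) and 12 summed immediate early genes (squares) in each of 17 libraries, grouped as PIS, IS, EG and RT. Libraries low in the summed genes, such as PIS replicates 1 and 2, IS replicate 1, EG replicate 2 and RT replicate 2, are those with SLC2A3 below 5 RPKM.

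Related pathways were read from other lists of genes. Their counts are to be read against all genes, of which 22.7% rose in IS against PIS, 42.9% rose in EG against PIS and 39% fell in RT against EG. After scaling these shares were 6.19%, 16.7% and 6.35%. Of 11 further genes of glycolysis and gluconeogenesis that were tested, 4 rose in IS against PIS, 2 of them also after scaling. They included GALM, which converts the forms of galactose and glucose (1.40 ± 0.21, adjusted p = 0.00172), and PGM2, a phosphoglucomutase gene (1.36 ± 0.24, adjusted p = 0.00339). In EG against PIS 7 rose and 1 fell, and after scaling 1 was higher and 1 lower. In the pentose phosphate pathway, which runs beside glycolysis and supplies NADPH and ribose, 3 of 7 genes rose in IS against PIS and 6 of 7 in EG against PIS, with PGD at 0.95 ± 0.15 (adjusted p = 0.000501) and TKT at 0.69 ± 0.13 (adjusted p = 0.00108). In RT against EG 4 of these 7 fell. After scaling, none of the 7 was called in IS against PIS, 2 were higher in EG against PIS and 1 was lower in RT against EG. HKDC1, a hexokinase-like gene, rose by 0.88 ± 0.16 in RT against dental lamina (adjusted p = 0.000349), with 3.58 to 8.45 RPKM in RT and at most 3.95 RPKM in any dental lamina library.

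Of 27 other hypoxia targets tested in dental lamina, 2 rose and 1 fell in IS against PIS, 3 rose in EG against IS, and 10 rose and 3 fell in EG against PIS. These shares of the list that rose lay below those of all genes in IS against PIS and in EG against PIS. In EG against IS the share lay above that of all genes, of which 1.64% rose. After scaling, 3 were lower and none higher in IS against PIS, 1 was higher in EG against IS, and 6 were higher and 5 lower in EG against PIS. Of all genes, 5.55% were then lower and 6.19% higher in IS against PIS, and 1.38% were higher in EG against IS. In EG against PIS 16.7% of all genes were higher and 15.4% lower. STC1, the gene of the hormone stanniocalcin, had 0.427 to 1.69 RPKM in PIS, 0.318 to 1.33 in IS and 5.21 to 8.85 in EG, a rise of 2.59 ± 0.32 in EG against IS (adjusted p = 0.00123) and of 2.37 ± 0.28 in EG against PIS (adjusted p = 0.000118). MXI1 and FAM162A rose by 0.98 ± 0.14 (adjusted p = 0.000234) and 0.91 ± 0.13 (adjusted p = 0.000264) in EG against PIS. With the replacement tooth, 28 of these genes were tested, and 6 rose and 3 fell against EG (7 higher and 1 lower after scaling). Of all genes, 4.89% rose and 39% fell there, and 9.28% were higher and 6.35% lower after scaling. The 28 include CA9, so these counts of higher genes are descriptions only. CA9, the carbonic anhydrase gene widely used as a hypoxia marker in human tumours, passed the filter on low values only through RT, where it had 2.34 to 10.8 RPKM against at most 0.136 RPKM in EG. No test is given for it, since a gene kept only through the group where it is high had to differ. BNIP3L, a relative of BNIP3, rose by 0.71 ± 0.20 in RT against EG (adjusted p = 0.0111), where BNIP3 itself fell. Of 9 other genes of the HIF pathway, 2 rose in EG against PIS (VHL and HIF1AN), where 42.9% of all genes rose. In RT 4 fell against EG and 5 against dental lamina, where 39% and 36.3% of all genes fell. These calls were lost after scaling. Scaled, 1 was lower in IS against PIS and 1 in EG against PIS, where 5.55% and 15.4% of all genes were.

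RNA of cell cycle genes and of cell type markers differed between the same groups. Of 21 cell cycle genes, 20 rose in IS against PIS and 20 in EG against PIS, where 22.7% and 42.9% of all genes rose. In RT against EG 17 fell, where 39% of all genes fell. After scaling these counts were 18, 19 and 6, where the shares of all genes were 6.19%, 16.7% and 6.35%. The 21 include CENPA and CCNA2, with at most 0.662 and 0.966 RPKM in PIS. These passed the filter on low values in the dental lamina fit only through IS and EG. The counts of rises are therefore descriptions only. The summed level of the 21 genes was 117 to 174 RPKM in PIS, 271 to 411 in IS, 271 to 389 in EG and 124 to 290.3 in RT. Dental epithelium markers summed to 90.1 to 590.3 RPKM in PIS, 707 to 885 in IS, 873 to 1151 in EG and 143 to 849 in RT. Without PIS replicates 4 and 5, also picked from earlier results, 12 of the 30 genes were called in IS against PIS and 16 in EG against PIS. Shares of all genes are not given for these counts. The part of proliferation and of tissue composition in the glycolytic changes was not tested.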

How the data were processed

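RNA sequencing values of 17 alligator tooth libraries were taken as the authors deposited them, in RPKM (reads scaled to gene length and library alignments). Libraries were made with Illumina TruSeq from Trizol extracts of dissected tissue, per the labels' protocols. The submitters' processing notes name TopHat2 2.1.0 and Partek 3 and do not say what each did. Of the build, the annotation and the strand setting, each is not given in the sources used here. No positions are therefore printed, and overlapping or near-identical genes may share reads. Of the 32 genes of the set in the table, 30 match a symbol in the RefSeq gene table. PKM2 and SLC2A3 do not, and their identities rest on the symbols as deposited.

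In R 4.3.3, limma 3.58.1 was fitted to log2(RPKM + 0.5) by group, with empirical Bayes moderation and a trend of variance on mean. The genes tested had 1 RPKM or more in 3 or more of the libraries fitted, 12684 in the fit of the 12 dental lamina libraries and 12904 in the fit of all 17. RT was set against EG and against dental lamina, the mean over its 3 stages with equal weight. P-values were adjusted by Benjamini-Hochberg over all genes tested, and genes were called under 0.05. The values are RPKM, so no count test was run, and no counting intervals are given. Median-ratio factors were 0.764 to 1.232, from 13662 genes above 0 in every library, with the same genes tested. Ratios of related genes were compared by exact permutation tests adjusted over 20 tests. The fits were checked on simulated data with known changes.

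The genes of the set and the lists were chosen with earlier results of these data known, and the immediate early genes after the values of SLC2A3 were seen. Values in every library are given for SLC2A1, LDHA, PGK1, PKM2, HIF1A, VEGFA, PDK4 and CKM and for the called genes with the 4 largest rises and 4 largest falls in each comparison. From other lists, up to 3 called genes with the smallest p may be named. SLC2A3, ADM and PFKFB3 were added after their spread was seen. Alternatives were pseudocounts of 0.1 and 1, no filter, a mean of at least 5 RPKM, median-ratio and quantile scaling, only the groups compared or all 17 libraries in the fit, array weights, a replicate block, PIS replicates 4 and 5 or RT replicates 3 and 5 left out, and each library left out in turn.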

Additional observations from a re-analysis of the deposited data

Results flagged for a closer look

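In groups of 4 or 5 libraries, a gene was listed here where its highest or lowest library lay far from the other libraries of its group by Dixon's test. Of 91 groups tested, 7 met this, and chance alone lists about 1 in 20 groups. The 3 IS libraries were too few to test. PFKP was 11.5 RPKM in EG replicate 2, below 16 to 16.6 RPKM in the other EG libraries, and without that library its change in RT against EG was 0.40 (limma adjusted p = 0.12). ENO1 was 300.5 RPKM in EG replicate 1, above 230.3 to 237 RPKM in the other EG libraries. In PIS replicate 5, the library with the low dental epithelium marker sum, ENO3 was 0.221 RPKM, below 0.831 to 1.18 RPKM in the other PIS libraries, and PDK1 was 3.67 RPKM, below 6.86 to 7.94 RPKM. ADM was 1.56 RPKM in PIS replicate 4, above 0.472 to 0.687 RPKM in the other PIS libraries. In RT replicate 2, LDHB was 92.4 RPKM, below 112 to 121 RPKM in the other RT libraries, and PDK3 was 8.27 RPKM, above 4.54 to 5.18 RPKM.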

How the results depend on the processing

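No called change of the set reversed under any alternative tried. The number of the 30 genes called moved with the scaling in IS against PIS, in EG against PIS and among dental lamina stages, while in EG against IS it was 3 both as deposited and after median-ratio scaling. In IS against PIS it was 12 as deposited, 2 after median-ratio scaling, 3 after quantile normalization and 7 with only the groups compared in the fit. Of all genes, 25%, 11.7%, 11.9% and 12.2% were called there. In EG against PIS it was 15 as deposited and 9 after median-ratio scaling, where 50.5% and 32.2% of all genes were called. Among dental lamina stages it was 17 as deposited, 9 after median-ratio scaling and 10 after quantile normalization. Of all genes, 45.4%, 28.2% and 28.2% were called there. Array weights raised it to 12 in EG against IS and 20 in RT against EG, where 31.7% and 68.2% of all genes were called. Without RT replicates 3 and 5 it was 4 in RT against EG, with fewer samples, where 11.9% of all genes were called. With each library left out in turn it ranged from 7 to 14 in IS against PIS, 1 to 3 in EG against IS, 15 to 17 in EG against PIS, 6 to 12 in RT against EG, 10 to 14 in RT against dental lamina and 14 to 19 among stages. No ratio of related genes passed in those settings. With fewer libraries, the smallest p that the exact permutation test can reach is larger, so no conclusion is drawn from that. With no filter on low values, SLC2A1, ALDOA, GPI and PDK1 in IS against PIS (adjusted p from 0.0501 to 0.0826), HIF1A in EG against IS (0.0731), HIF1A, PFKP and NDRG1 in RT against EG (0.0563 to 0.0723) and NDRG1 in RT against dental lamina (0.0661) were not called. Except where stated, the cause was not tested. Replicate numbers are shared between groups. The deviations of same-numbered libraries had correlations across genes from -0.48 to 0.36 (22 pairs, median 0.06, 8 above 0.1). For libraries with different numbers they ran from -0.41 to 0.42 (85 pairs, median -0.03, 22 above 0.1). These ranges overlap, and the numbers were not taken to pair the libraries, which does not exclude a pairing. With a replicate block, 9, 3, 16, 8 and 13 genes were called in IS against PIS, EG against IS, EG against PIS, RT against EG and RT against dental lamina, and 16 among stages. Shares of all genes are not given for these counts or for the ranges with each library left out. Those numbers therefore do not set these genes apart from all genes.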

Other observations

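Among other sugar transporters, SLC2A13, a proton-coupled inositol transporter gene, rose by 1.38 ± 0.20 in RT against dental lamina (limma adjusted p = 5.51e-05), and SLC2A10 rose by 0.74 ± 0.12 (adjusted p = 0.00012). In glycogen metabolism, PYGB, the brain-type glycogen phosphorylase gene, rose by 0.71 ± 0.11 in EG against PIS (adjusted p = 0.000547, scaled 0.38 with adjusted p = 0.0277) and fell by 0.71 ± 0.14 in RT against EG (adjusted p = 0.00222, scaled -0.34 with adjusted p = 0.0636). GPD1, which links glycolysis to glycerol lipid synthesis, fell by 1.27 ± 0.24 in RT against dental lamina (adjusted p = 0.000462), with 0.695 to 1.4 RPKM in RT and 1.43 to 9.2 RPKM in dental lamina libraries.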
